A study of Arabidopsis thaliana with 6 samples.

Results

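AT5G44020 and AT1G04040 encode acid phosphatases of the haloacid dehalogenase (HAD) superfamily, and their transcripts were measured in root tips of Arabidopsis thaliana on Affymetrix ATH1 arrays. The platform's probe table assigns probe set 249073_at to AT5G44020 and 265042_at to AT1G04040, and these are 2 of the 13333 genes that could be named on the array. They were chosen because their signals were low in the mutant in these same data, so their genotype difference is described here and not tested. The mutant carries the alleles athb8-11, cna-2, phb-13 and phv-6 together, and so is mutant in 4 HD-ZIP III genes, ATHB8, CNA, PHB and PHV (HD-ZIP III stands for homeodomain-leucine zipper class III). It was set against Col er-2, the Columbia background with the er-2 allele. Per the labels' protocols, untreated seedlings of both genotypes grew vertically on mesh over 0.5X MS medium with 1% sucrose and 1% agar at 22 °C, under 18 h of light and 6 h of dark. At 4 days after germination the last 0.5 mm of the primary root was cut by hand. Each of the 3 replicates per genotype pooled about 200 tips, and 250 ng of total RNA went into each labelling. A pooled tip holds all cell types of the root apex, so a lower signal from fewer expressing cells cannot be told apart from less RNA per cell.

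HAD enzymes use an aspartate in the active site as the nucleophile that takes up the phosphoryl group of the substrate. The plant acid phosphatases of this superfamily are a small group distinct from the metal-coloured purple acid phosphatases, and they include the vegetative storage proteins VSP1 and VSP2, which accumulate in leaves and flowers and respond to jasmonate. Acid phosphatases as a class release phosphate from organic esters at low pH, in the vacuole, the cell wall or the soil. In the root, HD-ZIP III transcription factors pattern the vascular cylinder, where their dose directs xylem cell fate.

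The table holds 22746 probe sets other than controls. Array medians lay between 5.56 and 5.59 on the log2 scale of the RMA signal, in which 1 unit is a doubling. Pairwise correlations of the arrays over probe sets were 0.989 to 0.996. On a first principal component with 41.4% of the variance, wild type replicate 1 was at one end, with a score of 28.1, and mutant replicate 1 was next, at 11.4. The other 4 arrays scored from -18.5 to 0.96. Of the mutated genes, PHV could be named on the array. Its signals were 4.64, 4.93 and 4.66 in the mutant and 5.49, 5.80 and 5.68 in Col er-2, and the groups did not overlap. All 3 mutant signals and that of wild type replicate 1 lay below their array medians, and PHV was above the median on only 2 arrays. The signals carry no detection call, so the difference is that of the signals. It was -0.92 (limma, Benjamini-Hochberg adjusted p = 0.0639). Whether that probe set lies outside the phv-6 lesion is not known from the labels.

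AT5G44020 had log2 signals of 9.12, 8.03 and 8.63 in mutant replicates 1, 2 and 3. In Col er-2 its signals were 10.29, 9.72 and 9.70. The highest mutant array lay 0.58 below the lowest wild type array, so the groups did not overlap. The means were 8.59 ± 0.55 (SD, n = 3) in the mutant and 9.90 ± 0.33 in Col er-2. The difference of -1.31 had an SE of 0.37 from these replicates, and a moderated SE of 0.27 in the limma fit, which draws the spread of a gene toward that of other probe sets. It is a signal 2.48-fold lower, or 40.2% of the wild type signal, and it was 2.90 times the pooled SD of the replicates. All 6 signals lay well above the array medians.

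AT1G04040 had log2 signals of 10.88, 10.43 and 10.49 in mutant replicates 1, 2 and 3. In Col er-2 its signals were 11.86, 11.31 and 11.46. Here too the groups did not overlap, with a gap of 0.43 between the highest mutant and the lowest wild type array. The means were 10.60 ± 0.25 (SD, n = 3) in the mutant and 11.54 ± 0.29 in Col er-2. The difference of -0.94 had an SE of 0.22 from these replicates and a moderated SE of 0.17 in the limma fit. It is a signal 1.92-fold lower, or 52.1% of the wild type signal, and it was 3.52 times the pooled SD.

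**Figure D1:**
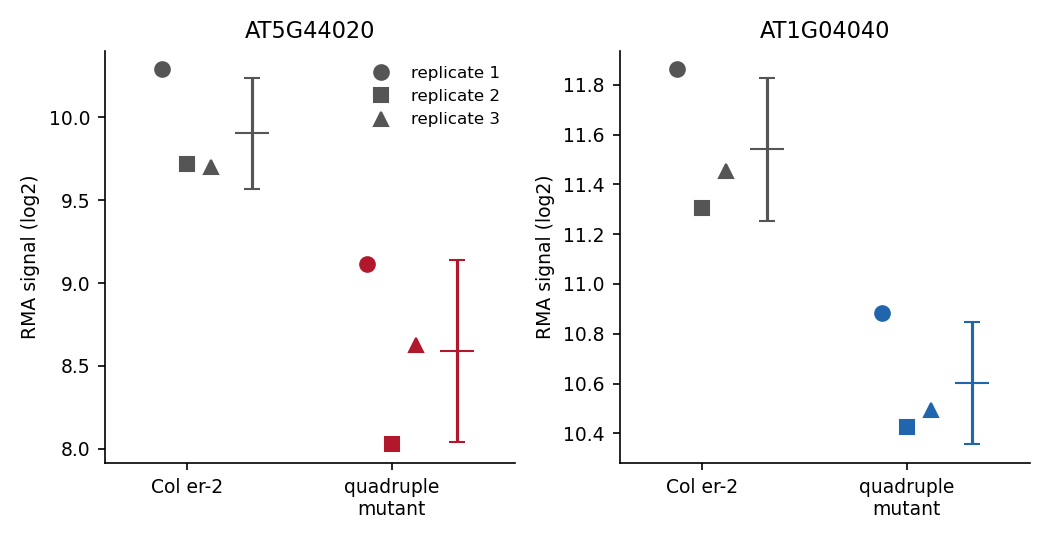
RMA signal on a log2 axis for AT5G44020 (left) and AT1G04040 (right), with a point for each array, the replicate number given by the shape, and the mean with its SD (n = 3) beside each group. All 3 mutant arrays lie below all 3 Col er-2 arrays for both genes, and replicate 1 is the highest of its genotype in each case.

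Mutant and wild type arrays failed to overlap in 13.1% of all probe sets, and in 5.57% with the mutant lower. With limma and Benjamini-Hochberg adjustment over all probe sets, 6 of 22746 or 0.0264% were called at an adjusted p under 0.05, and 0 of the 2 genes were among them. At an unadjusted p under 0.05 both genes were included, as were 7.47% of all probe sets. Because the genes were picked on this contrast, nothing is read from these counts.

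The sizes of the differences can be placed among all probe sets as a description. That of AT5G44020 was the 5th largest in either direction among the 22746, and that of AT1G04040 the 33rd. Both genes are bright. Among the 2733 probe sets with a mean signal at least that of AT5G44020, none differed more, and the same was true of AT1G04040 among the 765 at least as bright as it. The levels of the 2 genes are not compared with each other, since probe sets differ in how strongly they bind their transcript.

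**Figure D2:**
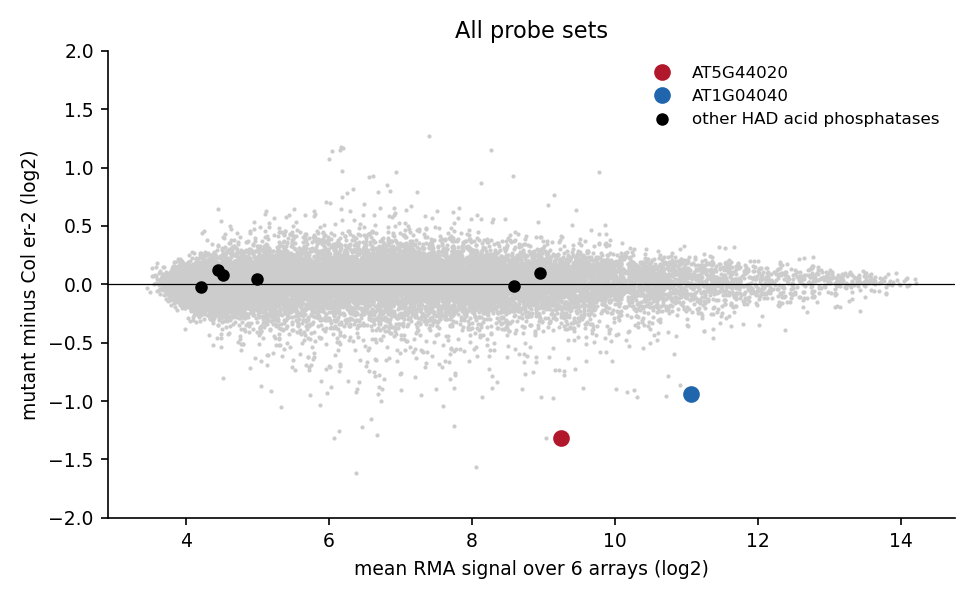
Mutant minus Col er-2 difference (log2) against the mean signal over 6 arrays (log2) for all probe sets in grey, with 1 probe set beyond the plotted limit of 2. AT5G44020 (red) lies at -1.31 and AT1G04040 (blue) at -0.94, below all other probe sets of their brightness or above, and the 6 other HAD acid phosphatase genes (black) lie between -0.02 and 0.12.

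The replicates of each genotype spread more for these genes than for most. The pooled SD within genotypes was 0.45 for AT5G44020, above that of 98.5% of probe sets, and 0.27 for AT1G04040, above that of 93.5%. The median over all probe sets was 0.12. Much of this spread was shared. Relative to its genotype's mean, AT5G44020 deviated by 0.53, -0.56 and 0.04 in mutant replicates 1, 2 and 3, and by 0.39, -0.18 and -0.20 in wild type replicates 1, 2 and 3. AT1G04040 deviated by 0.28, -0.17 and -0.11 in the mutant and by 0.32, -0.23 and -0.09 in Col er-2. Both genes were thus highest in replicate 1 of both genotypes, as were 11.6% of all probe sets. Replicate 1 exceeded the mean of the other two by 0.68 for AT5G44020 and 0.45 for AT1G04040, averaged over the genotypes, which was more than in 98.9% and 97.6% of probe sets. The replicate 1 arrays also had the highest scores on the first principal component, 28.1 in wild type and 11.4 in the mutant. Wild type replicate 2 followed at 0.96, so mutant replicate 1 lay nearer to it than to wild type replicate 1. The part of whatever that component reflects in the spread of these genes was not tested.

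**Figure D3:**
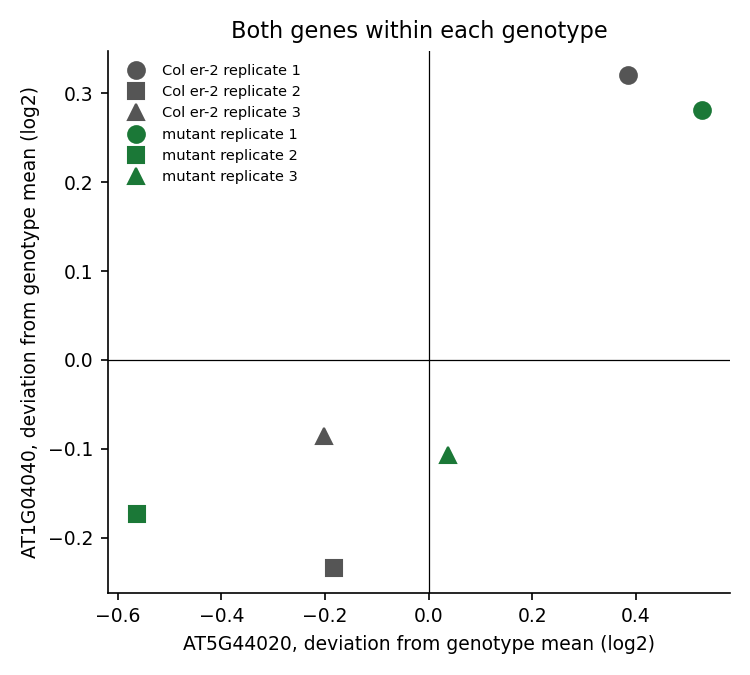
Deviation of each array from its genotype's mean (log2), AT5G44020 on the horizontal axis and AT1G04040 on the vertical axis, with grey for Col er-2, green for the mutant and a shape for each replicate number. Replicate 1 of both genotypes lies at the upper right, between 0.39 and 0.53 for AT5G44020 and between 0.28 and 0.32 for AT1G04040.

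Set side by side by replicate number, AT5G44020 differed between mutant and wild type by -1.17, -1.69 and -1.07. For AT1G04040 the same differences were -0.98, -0.88 and -0.96, which lie within 0.10 of each other. The labels do not say that a number marks a shared day or batch. Over all probe sets, deviations from the genotype mean correlated at 0.504 between the 2 arrays numbered 1, the highest of the 9 combinations. The arrays numbered 2 correlated at 0.07 and those numbered 3 at 0.176, below the 0.317 of mutant replicate 2 with wild type replicate 3. The numbers were thus not taken as pairs. Over all 9 combinations of a mutant and a wild type array, AT5G44020 differed by -2.26 to -0.58 and AT1G04040 by -1.43 to -0.43.

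With 1 array left out, the difference of AT5G44020 ran from -1.58 without mutant replicate 1 to -1.03 without mutant replicate 2, its lowest array. That of AT1G04040 ran from -1.08 without mutant replicate 1 to -0.78 without wild type replicate 1, its highest array. Leaving out replicate 1 of both genotypes, a setting added after the pattern of that replicate was seen, gave -1.38 and -0.92. Because the groups did not overlap, leaving arrays out could not change the direction of either gene. With 3 arrays per genotype, leaving out 1 array also cannot move a difference by more than the pooled SD of that gene. The ranges above are thus a description.

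**Figure D4:**
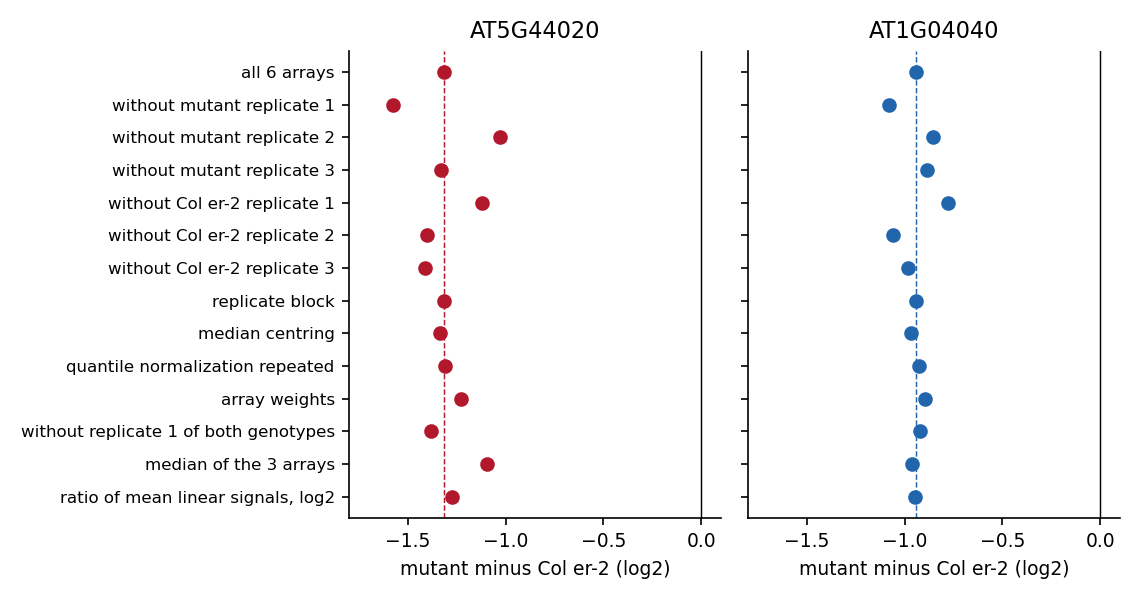
Mutant minus Col er-2 difference (log2) of AT5G44020 (left) and AT1G04040 (right) with all 6 arrays (dashed line), with arrays left out and under other settings. The points run from -1.58 to -1.03 for AT5G44020 and from -1.08 to -0.78 for AT1G04040, all below 0.

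Of the 10 Arabidopsis HAD acid phosphatase genes on the list used here, 8 could be named on the array, 6 of them beside AT5G44020 and AT1G04040. By limma with Benjamini-Hochberg adjustment, 0 of the 6 passed at an adjusted p under 0.05, 0 had an unadjusted p under 0.05, and 0 passed in the equal-variance test per probe set. Of all probe sets 0.0264% passed with limma and 7.47% had an unadjusted p under 0.05, so 0 of 6 is near the background. The differences of these 6 ran from -0.02 to 0.12 with a median of 0.06, where the median over all probe sets was 0.01. The tandem genes AT4G29260 and AT4G29270, which neighbour each other, were clearly above the array medians. AT4G29260 had signals of 8.58, 8.52 and 8.65 in the mutant and 8.78, 8.46 and 8.57 in Col er-2. AT4G29270 had signals of 8.86, 8.89 and 9.26 in the mutant and 8.98, 8.89 and 8.86 in Col er-2. For both genes the groups overlapped. The difference of AT4G29260 was -0.01 (95% confidence interval -0.24 to 0.22) and that of AT4G29270 was 0.10 (-0.17 to 0.37). As a description, both intervals lie above the -0.94 of AT1G04040. That value has its own error and belongs to a gene chosen for being low, so no test is made against it.

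AT2G38600, AT2G39920, AT4G25150 and AT5G51260 lay below the median of each of the 6 arrays, between 4.03 and 5.12. The table holds no detection calls, so their signals are not read as transcript and their differences, from -0.02 for AT2G39920 to 0.12 for AT4G25150, are those of the signals. VSP1 and VSP2 were not matched to a probe set by name and are not analysed here. That the members differ from these relatives is given as values side by side, because the members were chosen for being low.

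**Figure D5:**
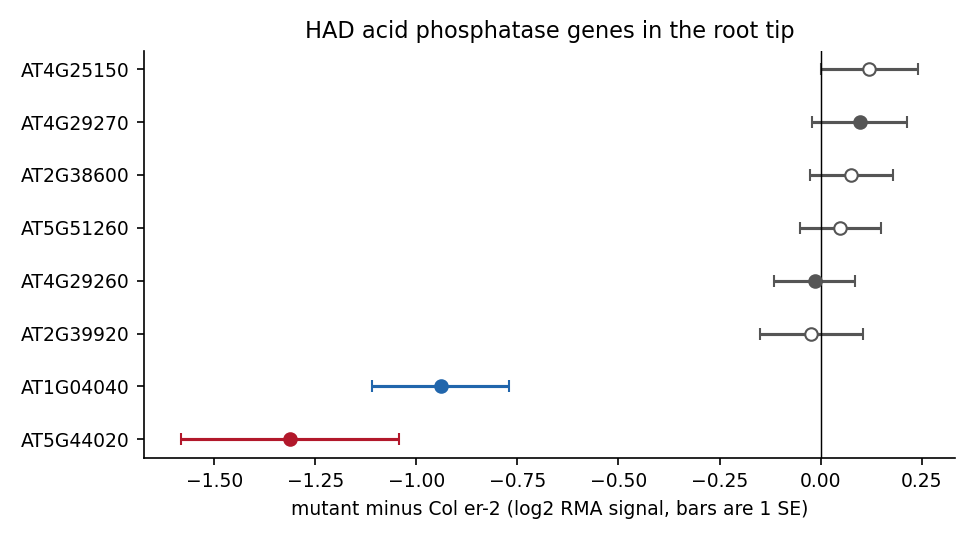
Mutant minus Col er-2 difference (log2 RMA signal) of the 8 HAD acid phosphatase genes, with bars of 1 moderated SE from the limma fit. Filled points mark genes above the median of all 6 arrays, open points those below. AT5G44020 and AT1G04040 lie at -1.31 and -0.94 and the other 6 between -0.02 and 0.12.

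Acid phosphatases of the other family, phosphate starvation genes and jasmonate genes were sparsely named. Of 29 purple acid phosphatase genes 3 were named. By limma with Benjamini-Hochberg adjustment none of these passed, with 1 at an unadjusted p under 0.05 and 0 in the adjusted equal-variance test. All 3 had lower means in the mutant, with a median of -0.24. Of all probe sets, 47.4% had a lower mean, 7.47% had an unadjusted p under 0.05, and 0.0264% passed. PAP20 had signals of 4.02, 4.12 and 4.15 in the mutant and 4.36, 4.20 and 4.46 in Col er-2, all below the array medians, and its difference was -0.24 (adjusted p = 0.599 with limma). AT1G25230 had signals of 5.98, 5.57 and 5.70 in the mutant and 6.84, 5.72 and 5.88 in Col er-2. The difference of -0.40 rested on wild type replicate 1, and was -0.05 without that array.

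In the list of phosphate starvation and transport genes, 3 of 40 were named and 0 passed, with 0 at an unadjusted p under 0.05 and 0 in the adjusted equal-variance test. SIZ1, a SUMO ligase that acts in the phosphate starvation response, differed by 0.14 and LPR2, a multicopper oxidase of the root tip's response to low phosphate, by -0.07 (adjusted p = 0.815 and 0.914 with limma). Of 27 jasmonate genes 3 were named and 0 passed, again with 0 at an unadjusted p under 0.05 and 0 in the adjusted equal-variance test. With 0.0264% of all probe sets passing and 7.47% at an unadjusted p under 0.05, 0 of 3 is near the background for both lists. JMT, which methylates jasmonic acid, differed by -0.16 and MYC3, a transcription factor of the jasmonate response, by -0.06 (adjusted p = 0.817 and 0.956 with limma). LPR2, JMT and MYC3 lay below the median of each of the 6 arrays, so their differences are those of the signals. SIZ1 lay above the median of all 6 arrays. SPX1 and PAP17, widely used reporters of low phosphate, were not matched to a probe set by name and are not analysed here.

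The named genes most like each member were found by Pearson's r over the 6 arrays, among 2765 named genes whose signals ranged over at least 0.5. Likeness includes the genotype difference that chose the members, and over 6 arrays in 2 genotypes it is a description. AT5G44020 was most like AT3G16800, which encodes a protein phosphatase 2C, at r = 0.998. Signals of AT3G16800 were 6.46, 5.84 and 6.20 in the mutant and 7.12, 6.76 and 6.73 in Col er-2, with all 6 arrays in the same order as for AT5G44020. AT1G63220, AT4G28650, AT2G18980 and AT5G19250 followed at r = 0.993, 0.985, 0.984 and 0.981. AT4G28650 encodes a leucine-rich repeat receptor-like kinase and AT2G18980 a class III peroxidase. Their differences between mutant and wild type were -0.42, -0.54, -0.86 and -0.62, in the same order, so all were smaller than that of AT5G44020.

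AT1G04040 was most like AT3G01720, at r = 0.996, with signals of 9.09, 8.84 and 8.87 in the mutant and 9.45, 9.23 and 9.31 in Col er-2. AT5G19250, AT3G13650, AT1G76240 and AT3G15760 followed at r = 0.989, 0.989, 0.989 and 0.979, and AT5G19250 was on both lists. AT3G13650 encodes a dirigent-like protein. Its signals were 5.29, 5.08 and 5.11 in the mutant and 6.10, 5.67 and 5.90 in Col er-2. The 2 members correlated with each other at r = 0.972 (Spearman's rho 0.943), which put each 8th among the named genes most like the other. Among the 5020 probe sets of that range, named or not, AT1G04040 was 23rd for AT5G44020, and AT5G44020 was 21st for AT1G04040. Beside AT5G44020, 28 named genes had r above 0.95, and beside AT1G04040, 29 had, which is 1.01% and 1.05% of the 2765.

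Along the chromosomes the 2 genes lie far from the mutated loci. AT5G44020 is on chromosome 5, which holds 0 of the 4 mutated loci. AT1G04040 is on chromosome 1 with 3396 loci of the TAIR10.1 gene table between it and PHV, the nearest mutated one. The next locus to AT5G44020 on one side, CESA4, a cellulose synthase of xylem secondary walls, overlaps it in that table. CESA4 was not matched to a probe set by name, and whether its transcripts reach the probe set of AT5G44020 was not tested. On the other side AT5G44010 was below the array medians, and its difference was 0.13 (limma Benjamini-Hochberg adjusted p = 0.803).

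AT1G04040 overlaps in the gene table with AT1G04030 on one side and with the long noncoding RNA AT1G04237 on the other. AT1G04030 had signals of 5.88, 6.02 and 5.80 in the mutant and 5.43, 5.48 and 5.49 in Col er-2, so that its groups did not overlap and the mutant was the higher one. Its difference of 0.43 (95% confidence interval 0.24 to 0.63) had the opposite sign to that of AT1G04040 and did not pass over all probe sets (limma Benjamini-Hochberg adjusted p = 0.246). AT1G04237 was not matched to a probe set. The table used here gives no strand, and whether transcripts of the overlapping loci reach the probe set of AT1G04040 was not tested.

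Markers of the tissues in a root tip were read beside these values. None of the 18 named of 82 listed passed limma's Benjamini-Hochberg threshold, 1 had an unadjusted p under 0.05, and 0 passed the adjusted equal-variance test. Over all probe sets 0.0264% passed and 7.47% had an unadjusted p under 0.05, so the 1 of 18 is near the background. The mean log2 signal of the 4 named stele and xylem genes of 27 was 5.59 to 5.90 on mutant arrays and 5.50 to 5.62 on wild type arrays. For the 4 ground tissue genes of 14 it was 5.96 to 6.24 and 5.91 to 6.00, and for the 2 root cap genes of 7 it was 7.15 to 7.37 and 6.75 to 7.11. For the 2 epidermis and root hair genes of 14 it was 4.41 to 4.47 and 4.37 to 4.71. For the 3 lateral root and pericycle genes of 6 it was 4.45 to 4.59 and 4.40 to 4.54. The means of these last 2 lists lay below the array medians on every array, and without detection calls they are not read as transcript. The 2 green tissue genes of 9 gave 5.15 to 5.36 in the mutant and 5.25 to 5.86 in Col er-2, and RCA among them differed by -0.33. STZ, the 1 named gene of 5 that respond to handling, was 9.50, 9.01 and 8.70 in the mutant and 9.83, 9.63 and 8.03 in Col er-2. AT1G62500, used as a cortex marker, was the one with an unadjusted p under 0.05 and differed by 0.57 (limma Benjamini-Hochberg adjusted p = 0.369). Of the 4 ground tissue genes, 2 had higher and 2 lower means in the mutant, from -0.14 to 0.57 with a median of 0.13. All 4 stele and xylem genes had higher means, by 0.13 to 0.22. So did the 3 lateral root and pericycle genes, by 0.04 to 0.09, and the 2 root cap genes, by 0.08 to 0.43. Of all 22746 probe sets, 11961 had a higher mean. IRX15 and OPS, the 2 stele and xylem genes with the smallest limma p, lay below the median of all 6 arrays, and their groups overlapped. Their differences are those of the signals. The 2 epidermis and root hair genes and the 2 green tissue genes had lower means, as had 47.4% of all probe sets. The root cap gene AT1G65570 and AT1G62500 lay above the median of all 6 arrays. RCA lay below the median on 5 of the 6. The part of tissue makeup in the difference of AT5G44020 and AT1G04040 was not tested.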

How the data were processed

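Root tips of 2 genotypes were measured on 6 ATH1 arrays. The deposited values are log2 signals, 1 per probe set and array. The submitters' processing notes list Affymetrix Expression Console, RMA and limma with no version or role; that the values are RMA signals follows from these names and the values' range. RMA includes quantile normalization, which hides a shift shared by most genes. Groups and replicate numbers came from the sample titles, and the series' design text calls the replicates biological.

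Of 22810 probe sets, 64 controls were left out. The other 22746 were fitted by genotype in R 4.3.3 with limma 3.58.1 (lmFit, eBayes), with Benjamini-Hochberg adjustment over all of them, and the fit was tested on simulated data. The number of arrays limits the precision. The probe table named 1 gene for 13513 probe sets, several for 503 and none for 8730; 13484 matched a TAIR10.1 locus, and the brightest probe set stood for a gene. The files name no build, so no coordinates are given.

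The members and lists were chosen with earlier results of these data known. The rule named the 2 members, every other HAD acid phosphatase gene, PHV, in each other list those called or else the 2 with the smallest p, neighbours within 2 loci, and the 5 named genes most like each member. Other genes of lists are given as counts. Same-numbered arrays correlated in their deviations from the group means at 0.504, 0.07 and 0.176, so the numbers were not taken as pairs. Alternatives were arrays left out, a replicate block, other scalings, array weights, other prior variances, a filter on probe sets under the 35th percentile, an equal-variance test, other thresholds, medians and linear means for the members, and Spearman's rho for likeness. Protein and promoter sequences were not analysed here.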

Additional observations from a re-analysis of the deposited data

How the results depend on the processing

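The differences of AT5G44020 and AT1G04040 kept their direction and moved by less than the replicates' pooled SD in all 13 alternatives each. Over these, AT5G44020 ran from -1.58 to -1.03 and AT1G04040 from -1.08 to -0.78. Because the groups did not overlap, leaving out or weighting arrays, medians and linear means could not change the direction. With 3 arrays per genotype, leaving out 1 array could not move a difference by more than the pooled SD either. The replicate block leaves the difference unchanged by construction. The number of calls over all probe sets did depend on the setting. Against 6 (4 higher, 2 lower), the replicate block called 109 (33 higher, 76 lower), or 0.479% of probe sets, of which 2 were the 2 members, with PHV at -0.92; the numbers are not known to pair the arrays. In the other settings neither member was called. Repeated quantile normalization called 11 (5 lower), a test with equal variances 1 (0 higher, 1 lower), array weights 22 (11 higher, 11 lower), a prior variance with a trend 14 (8 lower), and one that was also robust 27 (12 higher, 15 lower). Without replicate 1 of both genotypes there were 0 higher and 4 lower. An adjusted p under 0.1 gave 19 (10 higher, 9 lower) and under 0.01 it gave 2 (0 higher), by construction. Fits on 5 arrays called 1 to 8 probe sets, of which 0 to 2 were higher and 1 to 6 lower; without mutant replicate 1, 2 or 3 and without wild type replicate 2 the counts were 1, 1, 1 and 3. PHV counted as 1 call with the block, repeated quantile normalization, array weights, the trend with robust setting and an adjusted p under 0.1, and what caused these moves was not tested. The lists of acid phosphatases, phosphate, jasmonate and tissue genes had 0 calls in every setting run, where at most 109 of all probe sets were called.

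Of 544 recomputed values of 37 other named genes, 517 stayed on their side of the threshold with the same sign, 10 newly passed it and 17 turned sign without passing it; the cause was not tested. With 1 array left out AT2G39920 ran from -0.12 to 0.12, AT4G29260 from -0.0856 to 0.0733, AT4G29270 from -0.0313 to 0.17, AT5G51260 from -0.0023 to 0.13, MYC3 from -0.19 to 0.023, EXPA18 from -0.27 to 0.0105, LBD16 from -0.0275 to 0.18, PUCHI from -0.0016 to 0.0929 and STZ from -0.66 to 0.24. AT4G29260 was at 0.0546 with array weights. Without replicate 1 of both genotypes AT2G39920 was at 0.10, AT4G29260 at 0.0756, AT5G51260 at -0.025 and STZ at 0.0264. Of the 5 genes most like each member, Spearman's rho, which gave 18 and 19 genes a tie at 1, kept 0 for AT5G44020 and 1 for AT1G04040, and ranking all probe sets kept 2 and 3. Low signal limits the family members below the array medians.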
